A study of Mus musculus with 17 samples.

Results

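Apoe, Trem2, Spp1, Gpnmb, Fabp5, Lgals3, Lpl and Cd36, 8 genes of lipid handling that are often used to mark tumour macrophages, were chosen by name. They were followed in 5 single-cell libraries and 12 bulk RNA libraries of mouse cells. They are 8 of the 28208 genes common to the 5 single-cell matrices and 8 of the 48397 genes in the bulk tables, and all 8 passed the filters on low counts. In the single-cell libraries Apoe and Trem2 were higher in macrophages than in monocytes, dendritic cells and tumour epithelial cells. The test of Trem2 against monocytes passed in only some of the alternative settings. Spp1 was lower in macrophages than in tumour epithelial cells, and Fabp5, Cd36 and Lgals3 had their highest class means outside the macrophages. Gpnmb levels overlapped between macrophages and monocytes, with neither class the higher in every library. Among single macrophages Spp1, Gpnmb, Fabp5 and Lgals3 were positively correlated with each other, while Apoe was positively correlated with Trem2 and negatively with Spp1 and Lgals3.

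The single-cell libraries hold CD45+ leukocytes sorted from orthotopic pancreatic tumours after 3 weeks, 1 library for each of 5 genotypes. These are PDL1 floxed/floxed-CD4Cre (flfl_CD4Cre), PDL1 floxed/WT-CD4Cre (flWT_CD4Cre), CD4Cre, PDL1 floxed/floxed without Cre (flfl) and WT. CD4-Cre acts in T cells, so macrophages of the flfl_CD4Cre mice are not the cells in which Cre is driven, and the labels call all 5 libraries tumour-infiltrating T cells. The bulk libraries are labelled WT splenic T cells kept for 72 h on anti-mouse CD3/CD28 and form 4 titled groups of 3 (PD1_Fc, Ctrl_Fc, PDL1_Fc and Control). The protocol gives 2.5 ug/ml for PD-1 Fc and for its IgG Fc control, the Control libraries are labelled as having the antibodies only, and no dose is given for a PD-L1 Fc. The treatment field disagrees with the title for 1 PD1_Fc and all 3 PDL1_Fc libraries, so groups were taken from the titles.

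Macrophages that clear dying cells take up lipoproteins and membrane lipid through scavenger receptors, break them down in lysosomes, store fatty acids and cholesteryl esters in droplets and pass cholesterol out to apolipoproteins. Apoe is the apolipoprotein that accepts this cholesterol, Trem2 is a lipid-sensing surface receptor that signals through the adaptor Tyrobp, and Cd36 is a fatty acid and oxidised lipoprotein receptor. Lpl frees fatty acids from triglycerides and Fabp5 carries fatty acids in the cell. Spp1 encodes the secreted protein osteopontin, Gpnmb a glycoprotein of lysosome-related membranes, and Lgals3 galectin-3, a sugar-binding protein that is recruited to damaged lysosomes.

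In GRCm38 the genes lie at chr7:19696109-19699188 (Apoe, minus strand), chr17:48346401-48354147 (Trem2, plus), chr5:104435118-104441050 (Spp1, plus) and chr6:49036546-49070929 (Gpnmb, plus). Fabp5 lies at chr3:10012548-10016607 (plus), Lgals3 at chr14:47367751-47386160 (plus), Lpl at chr8:68880491-68907448 (plus) and Cd36 at chr5:17781690-17888801 (minus). RefSeq windows were available for 6 of the 8 genes, with none for Fabp5 and Lpl. The 250 bases before the start farthest upstream are shown for the genes that led each of the patterns below, 5′ to 3′ on the gene's own strand, with searched motifs in capitals (RefSeq, GRCm38.p6).
Apoe, chr7:19699189-19699438, minus strand: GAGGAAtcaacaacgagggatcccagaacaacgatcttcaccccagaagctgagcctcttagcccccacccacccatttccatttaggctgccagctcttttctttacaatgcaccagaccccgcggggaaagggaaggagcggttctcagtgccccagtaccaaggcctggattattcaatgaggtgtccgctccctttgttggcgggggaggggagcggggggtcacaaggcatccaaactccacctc
Trem2, chr17:48346151-48346400, plus strand: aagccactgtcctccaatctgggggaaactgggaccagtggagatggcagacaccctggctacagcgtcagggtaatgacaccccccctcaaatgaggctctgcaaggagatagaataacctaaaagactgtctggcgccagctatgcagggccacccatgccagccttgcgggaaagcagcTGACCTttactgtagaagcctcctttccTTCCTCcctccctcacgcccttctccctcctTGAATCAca
Spp1, chr5:104434861-104435110, plus strand: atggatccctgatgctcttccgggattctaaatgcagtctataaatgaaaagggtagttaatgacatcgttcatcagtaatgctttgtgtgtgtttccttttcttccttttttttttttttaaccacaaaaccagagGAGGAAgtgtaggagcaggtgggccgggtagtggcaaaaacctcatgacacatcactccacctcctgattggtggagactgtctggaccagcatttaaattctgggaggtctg
Gpnmb, chr6:49036268-49036517, plus strand: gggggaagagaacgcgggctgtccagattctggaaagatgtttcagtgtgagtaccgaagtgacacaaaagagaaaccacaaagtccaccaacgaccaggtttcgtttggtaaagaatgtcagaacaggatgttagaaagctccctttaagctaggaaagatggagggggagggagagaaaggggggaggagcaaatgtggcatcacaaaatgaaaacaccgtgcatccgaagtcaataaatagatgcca
The core GAGGAA bound by the myeloid factor PU.1, searched on both strands, was present 250 bases before the start of Apoe, 40 before Trem2 and 113 before Spp1, and in 23.3% of 32851 windows of this length. The AP-1-like pattern TGANTCA, with N as any base, was present as TGAATCA 9 bases before the Trem2 start, against 6.75% of all windows. The half-site AGGTCA was present 68 bases before Trem2 and 228 before the RefSeq start of Cd36, against 14.0%. The windows of Cd36 (chr5:17835897-17836146) and Lgals3 (chr14:47373610-47373859) lie inside the gene spans given above. They therefore precede a start within the gene. The E-box CACGTG, in 6.02% of all windows, was in none of the 6, and the Gpnmb and Lgals3 windows held none of the 4 motifs. These are matches of letters only.

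After the filters 19577 cells remained, 4224 in flfl_CD4Cre, 4386 in flWT_CD4Cre, 5358 in CD4Cre, 2796 in flfl and 2813 in WT tumours, with 34896191 to 60664235 unique molecular identifiers (UMIs) a library. Classes were called from 8 marker genes each, none of them among the 8 genes followed here, with type 1, type 2, migratory and plasmacytoid dendritic cells joined in 1 dendritic class, giving 6207 macrophages, 1258 monocytes, 1844 dendritic cells and 1537 tumour epithelial cells. Of the 10 leading genes of each class, 4 of the macrophages, 6 of the monocytes, 4 of the dendritic cells and 3 of the tumour epithelial cells were the class's own markers, and 0 were another class's. The 3 Cre libraries shared cell barcodes, 1856 between flfl_CD4Cre and flWT_CD4Cre, 1414 between flfl_CD4Cre and CD4Cre and 1710 between flWT_CD4Cre and CD4Cre, while flfl and WT shared 12. The shallower copies had medians of 784 to 808 UMIs and held 0.297% of macrophage UMIs in flfl_CD4Cre, 2.99% in flWT_CD4Cre and 1.18% in CD4Cre, and results are given with and without shared barcodes where that changed a call. The 3 Cre libraries were also counted against a larger gene table (31053 genes, against 28692 for flfl and WT), so Cre and gene table cannot be told apart. Cd274, the floxed gene, was at 43.4 CPM (UMIs of the gene per 1000000 UMIs of the class) in T cells of flfl_CD4Cre (exact Poisson 95% interval 27.2 to 65.7, 22 UMIs), 38.2 in flWT_CD4Cre, 66.8 in CD4Cre, 10.2 in flfl and 7.83 in WT tumours. Whether these tags lie in the floxed part of the gene is not given in the sources used here.

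Apoe had by far its highest levels in macrophages. The macrophage CPM, taken over all UMIs of the class in a library, was 10302 in flfl_CD4Cre, 12118 in flWT_CD4Cre, 12342 in CD4Cre, 39266 in flfl and 47999 in WT tumours. In monocytes it was 2330 in flfl_CD4Cre, 1828 in flWT_CD4Cre, 2688 in CD4Cre, 2280 in flfl and 3397 in WT. Every macrophage value lay above every monocyte value. Dendritic cells held 123 CPM in flfl_CD4Cre, 99.3 in flWT_CD4Cre, 258 in CD4Cre, 1129 in flfl and 1884 in WT. Tumour epithelial cells held 75.7 CPM in flfl_CD4Cre, 48.2 in flWT_CD4Cre, 139 in CD4Cre, 1156 in flfl and 1989 in WT. T cells, which should lack the gene, held 160 CPM in flfl_CD4Cre, 107 in flWT_CD4Cre, 617 in CD4Cre, 1228 in flfl and 2217 in WT, so the libraries with the highest macrophage level also had the highest levels in the 3 classes with little Apoe. The part of RNA outside the cells in these lower levels was not tested. The highest class means were those of macrophages (24405 ± 17839 CPM, SD, n = 5), monocytes (2504 ± 585) and neutrophils (1791 ± 2323). The ranges of neutrophils, T cells (866 ± 879), the dendritic class (699 ± 787) and tumour epithelial cells (681 ± 865) overlapped over the libraries. Within every library, however, T cells lay above both the dendritic class and the tumour epithelial cells.

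Trem2 was also highest in macrophages, at 240 CPM in flfl_CD4Cre, 275 in flWT_CD4Cre, 285 in CD4Cre, 223 in flfl and 333 in WT tumours. Monocytes held 101 CPM in flfl_CD4Cre, 148 in flWT_CD4Cre, 120 in CD4Cre, 50.1 in flfl and 126 in WT. The 2 classes did not overlap, and the macrophage mean of 271 ± 42.7 CPM stood against 109 ± 36.9 in monocytes (SD, n = 5 each). Dendritic cells held 1.93 to 12.1 CPM, tumour epithelial cells 1.12 to 10.3 and T cells 7.65 to 18.6, so Trem2 was low in all 3.

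Lpl was also highest in macrophages. These held 85.9 CPM in flfl_CD4Cre, 129 in flWT_CD4Cre, 57.2 in CD4Cre, 81.6 in flfl and 119 in WT, and monocytes 49.9 CPM in flfl_CD4Cre, 55.6 in flWT_CD4Cre, 21.3 in CD4Cre, 30.4 in flfl and 35.3 in WT. The macrophage values lay above all of the monocyte values, with means of 94.6 ± 29.3 and 38.5 ± 14.1 CPM (SD, n = 5 each). In dendritic cells Lpl was at 1.40 to 8.48 CPM and in tumour epithelial cells at 0.437 to 13.9 CPM, the 2 highest tumour values being those of flfl and WT.

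Spp1 was highest in tumour epithelial cells. Macrophages held 849 CPM in flfl_CD4Cre, 2003 in flWT_CD4Cre, 1456 in CD4Cre, 880 in flfl and 1399 in WT tumours. Tumour epithelial cells held 5219 CPM in flfl_CD4Cre, 4964 in flWT_CD4Cre, 3170 in CD4Cre, 4562 in flfl and 4193 in WT, all above every macrophage value. Monocytes ran from 69.9 CPM in flfl to 3774 in flWT_CD4Cre and overlapped the macrophages, while dendritic cells held 101 to 361 CPM, below every macrophage value. Krt8, a keratin of epithelial cells, was at 1285 to 3205 CPM in the tumour class, and C1qa, a macrophage marker, at 11.0 to 202 CPM there. The class means ran in the order tumour epithelial (4422 ± 801 CPM), plasma cell (3639 ± 2602, n = 4), monocyte (1689 ± 1384), macrophage (1317 ± 476) and neutrophil (1290 ± 637), with the dendritic class at 216 ± 106 (SD, n = 5 where not given). The ranges of tumour epithelial and plasma cells overlapped, as did those of monocytes, macrophages and neutrophils. The plasma cell class depended on the call. With at least 4 markers it fell from 67 to 13 cells in flWT_CD4Cre (median 20967 to 786 UMIs) and from 93 to 51 in flfl_CD4Cre. Its Spp1 level under that call was not tested.

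Gpnmb was measured mainly in macrophages, monocytes and neutrophils, at means of 101 ± 78.1, 123 ± 144 and 79.1 ± 72.4 CPM (SD, n = 5 each) that overlapped. Macrophages held 85.1 CPM in flfl_CD4Cre, 197 in flWT_CD4Cre, 168 in CD4Cre, 22.4 in flfl and 35.1 in WT, and monocytes 81.1 CPM in flfl_CD4Cre, 349 in flWT_CD4Cre, 176 in CD4Cre, 2.28 in flfl and 9.28 in WT. In both classes the 3 Cre libraries lay above flfl and WT. Dendritic cells held 1.09 to 10.6 CPM and tumour epithelial cells 1.02 to 2.96.

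Fabp5 was shared by macrophages and dendritic cells. Macrophages held 697 CPM in flfl_CD4Cre, 1854 in flWT_CD4Cre, 1327 in CD4Cre, 491 in flfl and 433 in WT. Dendritic cells held 1123 CPM in flfl_CD4Cre, 1517 in flWT_CD4Cre, 1601 in CD4Cre, 595 in flfl and 299.5 in WT, so the 2 classes overlapped. The highest class mean was that of migratory dendritic cells, the Ccr7-positive cells on their way to lymph nodes, at 2386 ± 896 CPM (SD, n = 4, 1745 to 3710), against 463 ± 182 in type 2 and 52.9 ± 23.3 in type 1 conventional dendritic cells (SD, n = 5 each). Monocytes averaged 574 ± 309 CPM and tumour epithelial cells held 6.89 to 171.

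Cd36 was low in macrophages, at 36.4 CPM in flfl_CD4Cre, 27.6 in flWT_CD4Cre, 37.5 in CD4Cre, 13.8 in flfl and 8.05 in WT tumours. The highest class mean was that of conventional type 1 dendritic cells, which take up dead cells for cross-presentation, at 97.4 ± 37.6 CPM (SD, n = 5), followed by B cells at 42.2 ± 32.2. The type 1 dendritic cells held 130 CPM in flfl_CD4Cre, 62.2 in flWT_CD4Cre, 51.6 in CD4Cre, 128 in flfl and 115 in WT, above the macrophages in all 5 libraries. Monocytes ran from 2.78 to 37.3 CPM and overlapped the macrophages. Tumour epithelial cells had 1 to 4 Cd36 UMIs in a library.

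Lgals3 was broadly expressed. Macrophages held 1235 CPM in flfl_CD4Cre, 2289 in flWT_CD4Cre, 1726 in CD4Cre, 1563 in flfl and 1971 in WT, and monocytes 1707 CPM in flfl_CD4Cre, 3249 in flWT_CD4Cre, 2236 in CD4Cre, 2555 in flfl and 2636 in WT. Monocytes lay above macrophages within every library, although the ranges of the 2 classes overlapped. The means were 2476 ± 565 CPM in monocytes, 1841 ± 587 in conventional type 1 dendritic cells, 1757 ± 400 in macrophages, 1074 ± 238 in tumour epithelial cells and 1062 ± 699 in the dendritic class as a whole (SD, n = 5 each). Over the libraries, the ranges of type 1 dendritic cells and of tumour epithelial cells (886 to 1487 CPM) also overlapped that of the macrophages. Among libraries of the same gene table, every tumour epithelial value lay below every macrophage value.

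**Figure D1:**
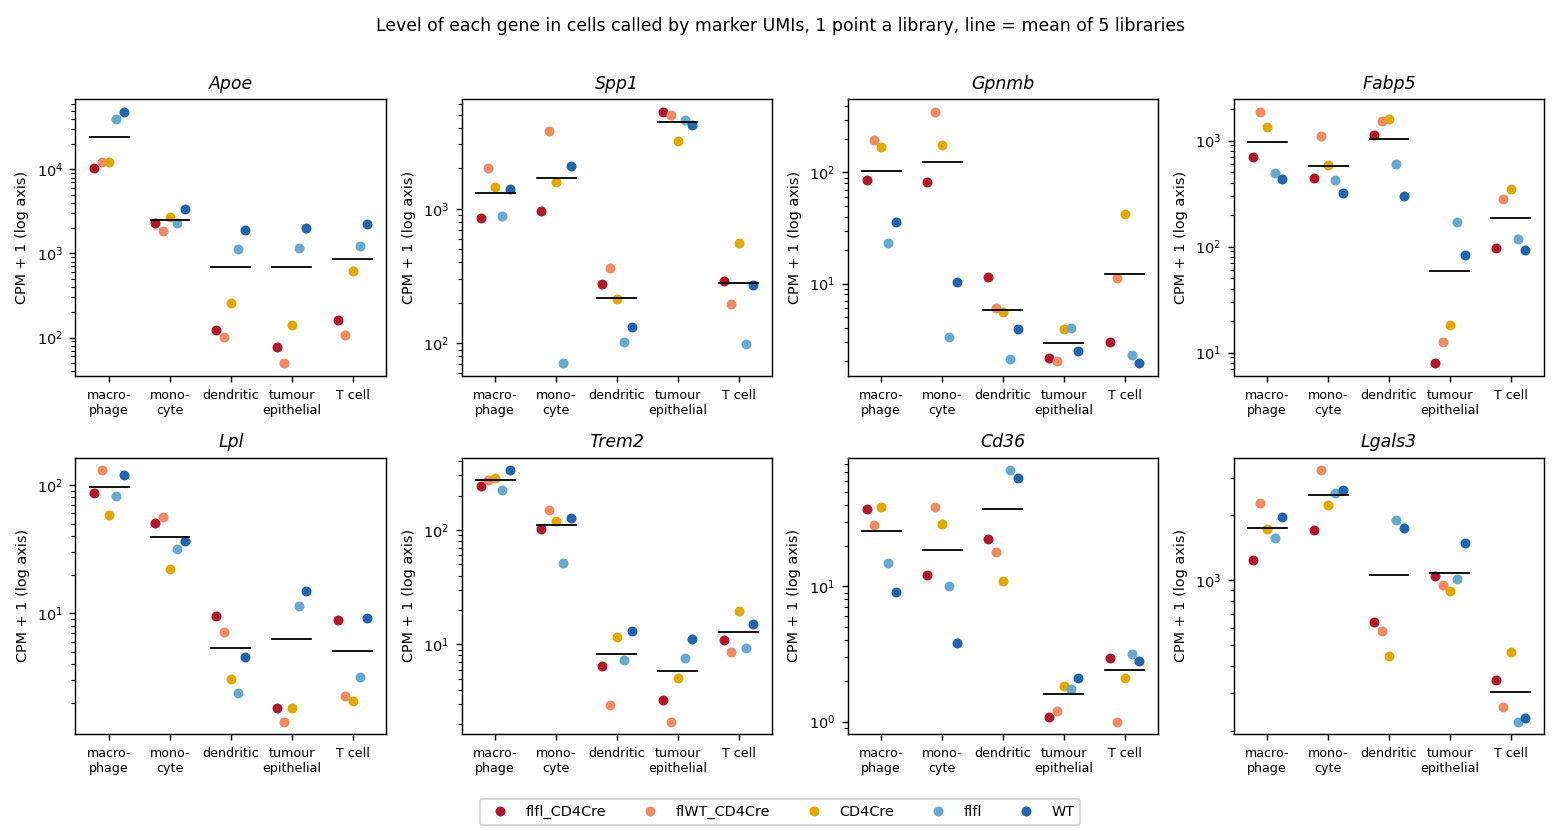
Level of each of the 8 genes (CPM plus a pseudocount of 1, log axis) in macrophages, monocytes, dendritic cells, tumour epithelial cells and T cells. Points are the 5 libraries and lines their means. Apoe, Trem2 and Lpl stand highest in macrophages, while Spp1 stands highest in tumour epithelial cells, at 3170 to 5219 CPM.

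These differences were tested with edgeR's quasi-likelihood test on UMIs summed per class and library, with the library as a block, over 12734 genes in 4 classes. Against monocytes, 2 of the 8 genes passed at an adjusted p of 0.05, both higher in macrophages, where 8.95% of all genes passed (729 genes or 5.72% higher and 411 or 3.23% lower, and 648 and 599 with DESeq2's size factors). Apoe was higher by 2.69 on the log2 scale (SE 0.58, adjusted p = 0.00891) and Trem2 by 1.32 (SE 0.39, adjusted p = 0.0438). The Trem2 call was lost in 4 of the 5 fits that left out 1 library (adjusted p = 0.139 without CD4Cre, 0.138 without flfl, 0.156 without flfl_CD4Cre and 0.0692 without WT), and it was lost when only the deepest copy of a shared barcode was kept (adjusted p = 0.0517). It was also lost with DESeq2's size factors, with no filter on low counts, with at least 4 markers and with classes from Leiden clusters. Lpl (log2 difference 1.29, SE 0.57, adjusted p = 0.190), Fabp5 (0.74), Cd36 (0.44), Gpnmb (0.21), Spp1 (−0.03) and Lgals3 (−0.45, adjusted p = 0.417) did not pass. With no cell of a shared barcode 3 genes passed, Lpl being the third (1.45, adjusted p = 0.0227), and 4 passed within the Cre libraries alone and within flfl and WT alone, all higher in macrophages. With classes named from Leiden clusters, Apoe passed as higher and Spp1 (−1.71, adjusted p = 0.00199) and Lgals3 (−0.88, adjusted p = 0.0315) as lower in macrophages. Those classes held 370 to 1159 macrophages and 310 to 1079 monocytes a library, against 864 to 1472 macrophages and 81 to 407 monocytes by markers.

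Against dendritic cells 5 of 8 genes passed, all higher in macrophages, where 35.4% of all genes passed (17.0% higher and 18.4% lower). Apoe was higher by 5.64 on the log2 scale (SE 0.66, adjusted p = 9.41e-06), Trem2 by 5.25 (SE 0.47, adjusted p = 6.38e-07), Lpl by 4.38 (SE 0.67, adjusted p = 0.000119), Gpnmb by 4.23 (SE 0.68, adjusted p = 0.000161) and Spp1 by 2.60 (SE 0.54, adjusted p = 0.00135). The Spp1 call was lost within flfl and WT alone (3.18, adjusted p = 0.158). Lgals3 (0.76, SE 0.32, adjusted p = 0.0768), Fabp5 (−0.22) and Cd36 (−0.74, SE 0.71, adjusted p = 0.465) did not pass. For Cd36 the log2 difference was −2.70 within flfl and WT alone (adjusted p = 7.18e-05) and 1.03 within the 3 Cre libraries (adjusted p = 0.0562). The contrast between these sets was not tested.

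Against tumour epithelial cells all 8 genes passed, 7 higher and Spp1 lower in macrophages, where 61.5% of all genes passed (31.0% higher and 30.5% lower). Apoe was higher by 6.34 on the log2 scale (SE 0.69, adjusted p = 1.32e-06), Trem2 by 6.48 (SE 0.51, adjusted p = 5.43e-08), Gpnmb by 6.63 (SE 0.84, adjusted p = 6.55e-06), Lpl by 5.18 (SE 0.75, adjusted p = 2.40e-05) and Fabp5 by 4.25 (SE 0.86, adjusted p = 0.000496). Cd36 was higher by 6.48 (SE 1.06, adjusted p = 7.66e-05), resting on the few UMIs of the tumour cells, and Lgals3 by 0.97 (SE 0.31, adjusted p = 0.0133). Spp1 was lower, with a log2 difference of −1.61 (SE 0.52, adjusted p = 0.0138). With no cell of a shared barcode the Spp1 and Lgals3 calls were lost (adjusted p = 0.0697 and 0.0737), and the Spp1 call was also lost without the flfl_CD4Cre library (adjusted p = 0.0648) and within flfl and WT alone (log2 difference −1.88, adjusted p = 0.278). The CD4Cre library drops out of the tumour class when shared barcodes are removed, since 14 of its 269 cells remain, under the minimum of 20. DESeq2's size factors moved the median difference of all genes to −0.13, against −0.01 here.

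Of 64 further genes of lipid handling in 6 lists, 61 could be tested in the same fit. Against monocytes 12 were higher and 1 lower in macrophages, where 5.72% of all genes were higher and 3.23% lower. The median log2 difference was 0.13 over the 61 and 0.07 over all genes. Lysosomal genes made up 7 of the 12, with 7 of 12 listed genes higher, none lower and a median difference of 0.89. The tetraspanin Cd63 of late endosomes averaged 963 CPM in macrophages and 134 in monocytes (log2 difference 3.00, SE 0.44, adjusted p = 0.000593). The protease Ctsd averaged 1894 CPM in macrophages and 771 in monocytes (1.35, SE 0.26, adjusted p = 0.00422).

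Among uptake receptors 3 of 10 were higher than in monocytes, where 5.72% of all genes were. Marco, a scavenger receptor, averaged 47.5 CPM in macrophages and 1.22 in monocytes (log2 difference 5.33, SE 0.59, adjusted p = 4.71e-05), and Stab1, another, 247 and 79.8 CPM (1.77, SE 0.28, adjusted p = 0.00113). Cd5l, a secreted scavenger-receptor family protein, was at 8.54 CPM in macrophages and 0.0406 in monocytes (6.64, SE 0.94, adjusted p = 0.000406). In the list of cholesterol efflux and LXR target genes the neighbouring apolipoproteins differed in direction: Apoc4 was higher (2.58, SE 0.60, adjusted p = 0.0135), whereas Apoc1 averaged 5.50 CPM in macrophages and 14.8 in monocytes (−1.60, SE 0.31, adjusted p = 0.00434). Axl, a receptor for bridged dying cells, was the only 1 of 10 tested TREM2-linked genes to pass, at 219 CPM in macrophages and 56.1 in monocytes (2.23, SE 0.36, adjusted p = 0.00114). None of 9 droplet genes or 10 PPAR and oxidation genes passed.

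Against dendritic cells 42 of the 61 genes were higher and 2 lower in macrophages (median log2 difference 1.30), where 17.0% of all genes were higher and 18.4% lower (median −0.04). All 12 lysosomal genes were higher, with Ctsd at 4.30, Ctsb at 3.04 and Ctsl at 2.90, all 3 of them lysosomal proteases. Among receptors 7 of 10 were higher, among them Msr1, the class A scavenger receptor (5.57, adjusted p = 2.06e-07). Efflux genes were higher in 7 of 10, with Apoc1 at 6.60 (adjusted p = 8.86e-07) and the cholesterol exporter Abca1 at 4.89 (adjusted p = 5.47e-06). The droplet list had 3 of 9 higher, among them the droplet coat gene Plin2 (1.43, SE 0.33, adjusted p = 0.00324), and the PPAR and oxidation list 8 of 10, led by the fatty acid carrier Fabp3 (4.08, adjusted p = 0.000170). Of the TREM2-linked genes 5 of 10 were higher, led by the protease Ctsk (3.31, adjusted p = 0.00860) and Axl (3.06, adjusted p = 9.93e-06).

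Against tumour epithelial cells 42 were higher and 8 lower (median log2 difference 1.54), where 31.0% of all genes were higher and 30.5% lower (median −0.01). Lysosomal genes were higher in 11 of 12, with Psap, the precursor of the saposins, at 4.14 (adjusted p = 2.44e-07). Msr1 was higher by 7.18 (adjusted p = 1.29e-08), the cholesterol exporter Abcg1 by 6.50 (adjusted p = 1.70e-07), and Tyrobp, the adaptor of Trem2, by 5.78 (adjusted p = 1.33e-07). Genes lower in macrophages included Vldlr, a lipoprotein receptor, which averaged 2.96 CPM in macrophages and 85.2 in tumour cells (−4.67, adjusted p = 1.68e-07). Angptl4, a secreted inhibitor of lipoprotein lipase, averaged 7.87 CPM in macrophages and 61.8 in tumour cells (−2.67, adjusted p = 1.35e-05). The PPAR and oxidation list went both ways, with 4 higher and 3 lower of 10.

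To compare shares of cells at equal depth, each cell was thinned to 2000 UMIs, which left out 986 of the 6207 macrophages, 20 T cells and 457 of the 1537 tumour epithelial cells, 191 of the 269 in CD4Cre among them (median depths of 1184 to 34096 UMIs in the tumour class). Apoe was then found in 89.8% to 99.7% of macrophages in the 5 libraries, with a median of 95.9%. In T cells the share was 26.7% in flfl_CD4Cre, 30.2% in flWT_CD4Cre, 41.8% in CD4Cre, 91.0% in flfl and 96.8% in WT, at median depths before thinning of 3145 to 15132 UMIs in macrophages and 5998 to 7642.5 in T cells. In flfl and WT a UMI of Apoe therefore did not separate macrophages from T cells. Trem2 did so more clearly, with a UMI in 31.2% to 45.8% of macrophages (median 36.3%) and in 0% to 5% of T cells (median 2.64%). Spp1 was found in 25.2% to 52.0% of macrophages (median 34.5%), in 75.8% to 95.6% of tumour epithelial cells (median 88.5%) and in 11.7% to 26.6% of T cells (median 15.5%). Lgals3 was found in 77.0% to 86.3% of macrophages and 19.1% to 36.5% of T cells, and Gpnmb in 2.65% to 18.1% of macrophages and 0% to 4.55% of T cells. The remaining shares in macrophages were 31.0% to 65.1% for Fabp5, 4.85% to 13.9% for Lpl and 1.22% to 5.43% for Cd36. Before thinning Apoe was found in 95.8% to 100% of macrophages and 58.4% to 100% of T cells, Trem2 in 51.6% to 82.5% and 5.83% to 13.3%, Spp1 in 56.5% to 74.7% and 28.3% to 60.2%, and Gpnmb in 6.87% to 28.4% and 0.792% to 7.08%, in macrophages and T cells in that order.

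Within macrophages, Spp1, Gpnmb, Fabp5, Trem2, Cd36 and Lgals3 were higher in cells with a UMI of Arg1, the arginine-degrading enzyme, than in those without, in all 5 libraries. Apoe and Lpl were higher in 2 of 5 each. Of 1836 genes at 50 CPM or more in the macrophages of every library, 16.4% were higher in all 5 libraries and 10.1% lower. Gpnmb (22.4 CPM in flfl and 35.1 in WT) and Cd36 (8.05 to 37.5 CPM) lay below that level. The shares of genes given for this and the other splits over 5 libraries therefore leave these 2 genes out. With 5 libraries the smallest exact two-sided p is 0.0625, so the libraries' values are given as a description. These splits use the marker call. Among the Leiden clusters, 1 of 1156 cells with Nos2, Gpnmb and Arg1 among its leading genes was named monocyte. Its overlap with the macrophages called by markers was not tested.

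Spp1 was at 924 CPM in cells with Arg1 and 399.6 in cells without in flfl_CD4Cre, 2301 and 708 in flWT_CD4Cre, 1568 and 523 in CD4Cre, 1326 and 388 in flfl, and 2419 and 554 in WT. The median log2 ratio was 1.70 (1.21 to 2.13). Gpnmb was at 94.8 CPM with Arg1 and 27.8 without in flfl_CD4Cre, 233 and 36.7 in flWT_CD4Cre, 182 and 47.2 in CD4Cre, 39.9 and 3.17 in flfl, and 59.5 and 14.9 in WT (median log2 ratio 2.0, 1.77 to 3.65). The median ratios of Fabp5 (1.39), Cd36 (0.99), Trem2 (0.88) and Lgals3 (0.83) were smaller. The cells with Arg1 were also deeper in every library, with medians of 5275 to 16377 UMIs, against 912.5 to 11532 UMIs in cells without. The part of depth in these ratios was not tested.

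Cells with a UMI of Nos2, the inducible nitric oxide synthase, also held more Spp1 (median log2 ratio 1.23), Gpnmb (1.21), Lgals3 (1.09, 0.99 to 1.94) and Fabp5 (0.73) in all 5 libraries, against 16.2% of the 1836 genes higher throughout. Apoe was lower with Nos2 in all 5, against 37.9% of genes lower throughout. It was at 7221 CPM in cells with Nos2 and 11243 in cells without in flfl_CD4Cre, 8663 and 13960 in flWT_CD4Cre, 9068 and 13882 in CD4Cre, 27901 and 39506 in flfl, and 21788 and 48742 in WT (median log2 ratio −0.64, −1.16 to −0.50). The cells with Nos2 were only 21 in flfl and 38 in WT. Their median depth was 15223.5 UMIs in flWT_CD4Cre, against 1207 without Nos2, and 15027 in flfl_CD4Cre, against 15152.5. The part of depth in the Nos2 ratios was not tested.

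Cd36 was higher in macrophages with a UMI of the scavenger receptor Marco or the hyaluronan receptor Lyve1, genes of resident macrophages. It was at 65.0 CPM in cells with either and 24.4 in cells without in flfl_CD4Cre, 43.8 and 26.2 in flWT_CD4Cre, 87.6 and 35.5 in CD4Cre, 67.4 and 12.6 in flfl, and 13.5 and 7.79 in WT (median log2 ratio 1.30, 0.74 to 2.42, against 13% of genes higher throughout). Fabp5 was lower in these cells in all 5 (median −1.08, against 16.9% of genes lower throughout). The cells with either gene, 26 to 306 a library, held 459 Cd36 UMIs in flfl_CD4Cre, 46 in flWT_CD4Cre, 33 in CD4Cre, 20 in flfl and 12 in WT. They had medians of 853.5 UMIs in CD4Cre and 913 in flWT_CD4Cre, against 11241.5 and 3532 in the cells without. In flfl_CD4Cre they were the deeper, at 22744.5 against 13397. The part of depth and of copies of shared barcodes in these ratios was not tested. Macrophages with Ccl24, an eosinophil-attracting chemokine, held more Lpl in all 5 (median 0.76, 0.09 to 1.75, against 20% of genes) and less Apoe (−0.55), Gpnmb, Trem2 and Lgals3, against 6.48% of genes lower throughout. Cells with the interferon-induced chemokines Cxcl9 or Cxcl10 held less Spp1 (−0.44), Gpnmb (−0.39) and Trem2 (−0.22) in all 5, against 12.6% of genes. Cells with the cycling genes Mki67 or Top2a held less Lgals3 in all 5 (−0.34, against 13% of genes lower and 30.7% higher throughout). In the Ccl24, chemokine and cycling splits the cells with a UMI were the deeper in all 5 libraries. In flWT_CD4Cre their medians were 15890.5 UMIs with Ccl24 (2074 without), 9365 with Cxcl9 or Cxcl10 (1032) and 15314 with cycling genes (1244). The part of depth in these splits was not tested. A split by the MHC class II genes H2-Aa and H2-Ab1 could be used in 3 libraries, where Gpnmb (median −1.35), Fabp5 (−0.50), Lgals3 (−0.37) and Trem2 (−0.26) were lower in all 3 in cells with a UMI of either, against 15.8% of 2781 genes lower and 21.6% higher throughout. The cells without such a UMI were 46 to 171 a library, with medians of 768.5 to 875 UMIs, against 4823 to 15584 in the cells with one, which is near the depth of the shallower copies of shared barcodes. The part of these copies in the split was not tested.

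**Figure D2:**
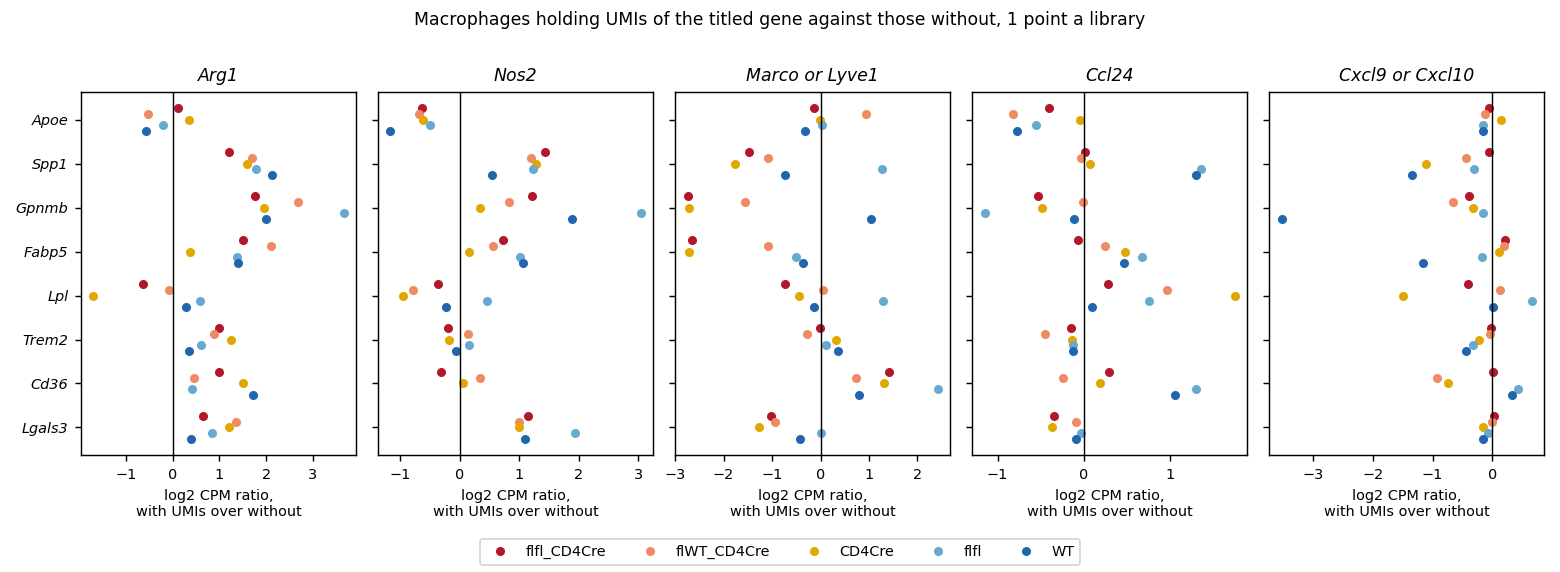
Log2 ratio of CPM in macrophages with at least 1 UMI of the named gene or genes over macrophages without (1 panel for each subset, points for the 5 libraries). With Arg1, the ratios of 6 of the 8 genes lie above 0 in all libraries; with Nos2, those of Apoe lie below 0 in all.

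Pairs of the genes were compared over single macrophages within each library. The values share depth and library and are a description. The highest median Pearson correlations over the 5 libraries were those of Spp1 with Lgals3 (0.33, 0.10 to 0.36), Fabp5 with Lgals3 (0.30, 0.20 to 0.46), Gpnmb with Fabp5 (0.29, 0.27 to 0.32), Gpnmb with Lgals3 (0.25) and Spp1 with Gpnmb (0.24). Apoe correlated with Trem2 in all 5 libraries (0.23, 0.21 to 0.27). It correlated negatively in all 5 with Spp1 (−0.19, −0.28 to −0.13) and with Lgals3 (−0.24, −0.28 to −0.14). All of these correlations are small.

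**Figure D3:**
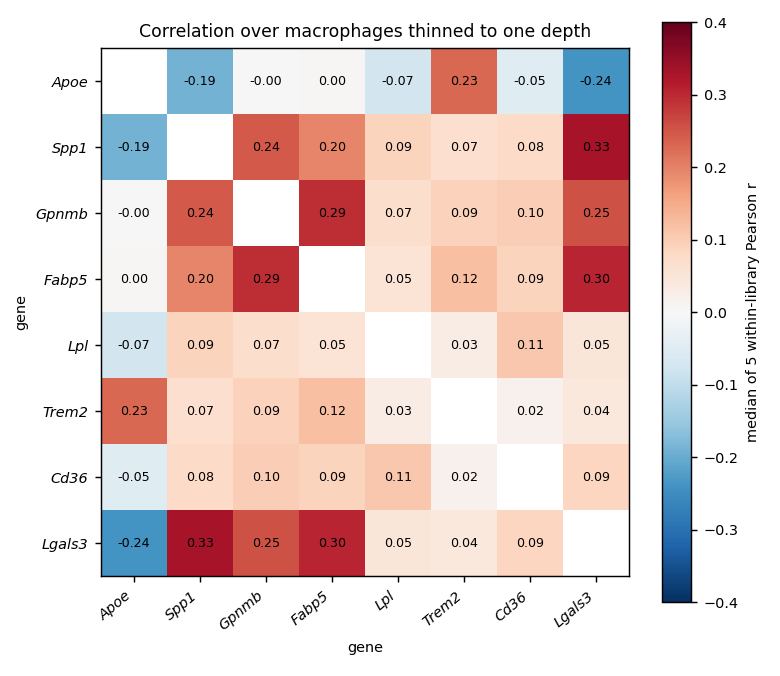
Median over 5 libraries of the Pearson correlation between each pair of the 8 genes over single macrophages within a library. Spp1, Gpnmb, Fabp5 and Lgals3 form a positive block, and Apoe is positive with Trem2 (0.23) and negative with Lgals3 (−0.24).

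Over 49 sums of class and library, the genes with the most similar profiles among 6831 were named for each gene by Pearson correlation of log2(CPM + 1). The points share libraries. Trem2 was closest to Msr1, C3ar1 and Pf4 (0.87 each), and Lpl to Lrpap1 (0.86), Ctsc (0.84) and Csf1r (0.80). Apoe was closest to Tmem37 (0.87), Lilra5 (0.81) and Ccl8 (0.81), and Gpnmb to Pdpn (0.90), Cd93 (0.89) and F7 (0.86). Spp1 was closest to Ecm1 (0.91), Rab34 (0.88) and Ahnak2 (0.87), Lgals3 to Ifitm2 (0.91), Asah1 (0.86) and Grn (0.84), Fabp5 to Adap1 (0.79), Arrb2 (0.77) and Fam49a (0.77), and Cd36 to Dnase1l3 (0.75), Fuca1 (0.75) and Unc93b1 (0.73). Among the 8 themselves, Apoe and Trem2 correlated at 0.82 and Lpl and Trem2 at 0.72.

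The genotype comparison asks whether these genes differ in macrophages of the mice that combine CD4-Cre with the floxed PD-L1 gene. Whether the gene was lost in T cells was not tested. In macrophages Cd274 was at 138 CPM in flfl_CD4Cre and 198 in CD4Cre (log2 difference −0.52). With 1 library a genotype there is no test, and flfl_CD4Cre was set beside CD4Cre, which carries the same Cre and the same gene table. None of the 8 genes met the rule of size (a log2 difference of at least 1, Poisson intervals apart, the flfl_CD4Cre level outside all other libraries, and 50 CPM), which 55 of 3402 genes met (1.62%). The intervals given here are exact Poisson 95% intervals and cover counting error only.

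Gpnmb was at 85.1 CPM in flfl_CD4Cre macrophages (81.4 to 88.9) and 168 in CD4Cre macrophages (160 to 176), a log2 difference of −0.98. Fabp5 was at 697 CPM in flfl_CD4Cre (687 to 708) and 1327 in CD4Cre (1304 to 1350), a difference of −0.93. Spp1 was at 849 CPM in flfl_CD4Cre (837 to 860) and 1456 in CD4Cre (1432 to 1480), a difference of −0.78. All 3 were lower in flfl_CD4Cre, but the Gpnmb and Fabp5 levels lay within the range of the other 4 libraries, and Spp1 at 849 CPM lay next to flfl at 880. Lgals3 was at 1235 CPM in flfl_CD4Cre and 1726 in CD4Cre (−0.48), below all other libraries, and Apoe at 10302 in flfl_CD4Cre and 12342 in CD4Cre (−0.26), also below all others. Lpl was at 85.9 CPM in flfl_CD4Cre (82.2 to 89.7) and 57.2 in CD4Cre (52.6 to 62.2), a difference of 0.59. Trem2 (−0.25) and Cd36 (−0.04) differed less.

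With only the deepest copy of each shared barcode kept, the differences were −0.79 for Spp1, −0.99 for Gpnmb and −0.94 for Fabp5. Without any cell of a shared barcode, which drops the deepest copies too, the differences of Spp1, Gpnmb and Fabp5 were smaller. Spp1 was then at 1108 CPM in flfl_CD4Cre and 1264 in CD4Cre (−0.19), Gpnmb at 101 and 152 (−0.59), and Fabp5 at 791 and 1116 (−0.50). Apoe was at 10696 in flfl_CD4Cre and 11057 in CD4Cre (−0.048). The Lpl difference was larger, at 83.6 CPM in flfl_CD4Cre and 37.6 in CD4Cre (1.15), and Trem2 was at 249 in flfl_CD4Cre and 245 in CD4Cre (0.02). Over 8 ways of calling or scaling the macrophages, the Spp1 difference ran from −1.20 to −0.19, Gpnmb from −1.32 to −0.59, Fabp5 from −1.34 to −0.50 Lgals3 from −0.49 to −0.35 and Apoe from −0.42 to −0.048, while Trem2 (−0.37 to 0.02) and Cd36 (−0.44 to 0.71) changed sign. In tumour epithelial cells Spp1 was at 5219 CPM in flfl_CD4Cre and 3170 in CD4Cre (log2 difference 0.72), above all other libraries. Without cells of shared barcodes 64 of 481 tumour epithelial cells remained in flfl_CD4Cre and 14 of 269 in CD4Cre, too few to repeat the comparison. With only the deepest copies kept, 357 remained in flfl_CD4Cre and 76 in CD4Cre, and the comparison was not made on these. None of the 8 genes met the rule of size in monocytes, where 0.353% of genes did, in dendritic cells (0.221%) or in tumour epithelial cells (0.398%).

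For Apoe, Gpnmb, Fabp5 and Cd36 the spread among macrophages of all genotypes followed the gene tables, while the Spp1, Lpl, Trem2 and Lgals3 ranges overlapped. Cd36 was at 27.6 to 37.5 CPM in the 3 Cre libraries and 8.05 to 13.8 in flfl and WT. It lay below the 50 CPM required for the counts that follow. In macrophages Apoe was at 10302 to 12342 CPM in the 3 Cre libraries and 39266 to 47999 in flfl and WT, while Gpnmb (85.1 to 197 in the Cre libraries, 22.4 to 35.1 in flfl and WT) and Fabp5 (697 to 1854 and 433 to 491) ran the other way. These 3 of the 7 genes at sufficient level did not overlap between the sets, where 83.0% of 3760 genes did not, so nothing is read from them about Cre. Between the same sets 2 of 7 did not overlap in monocytes (76.7% of all genes), 5 of 5 in dendritic cells (86.9%) and 2 of 4 in tumour epithelial cells (83.2%).

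**Figure D4:**
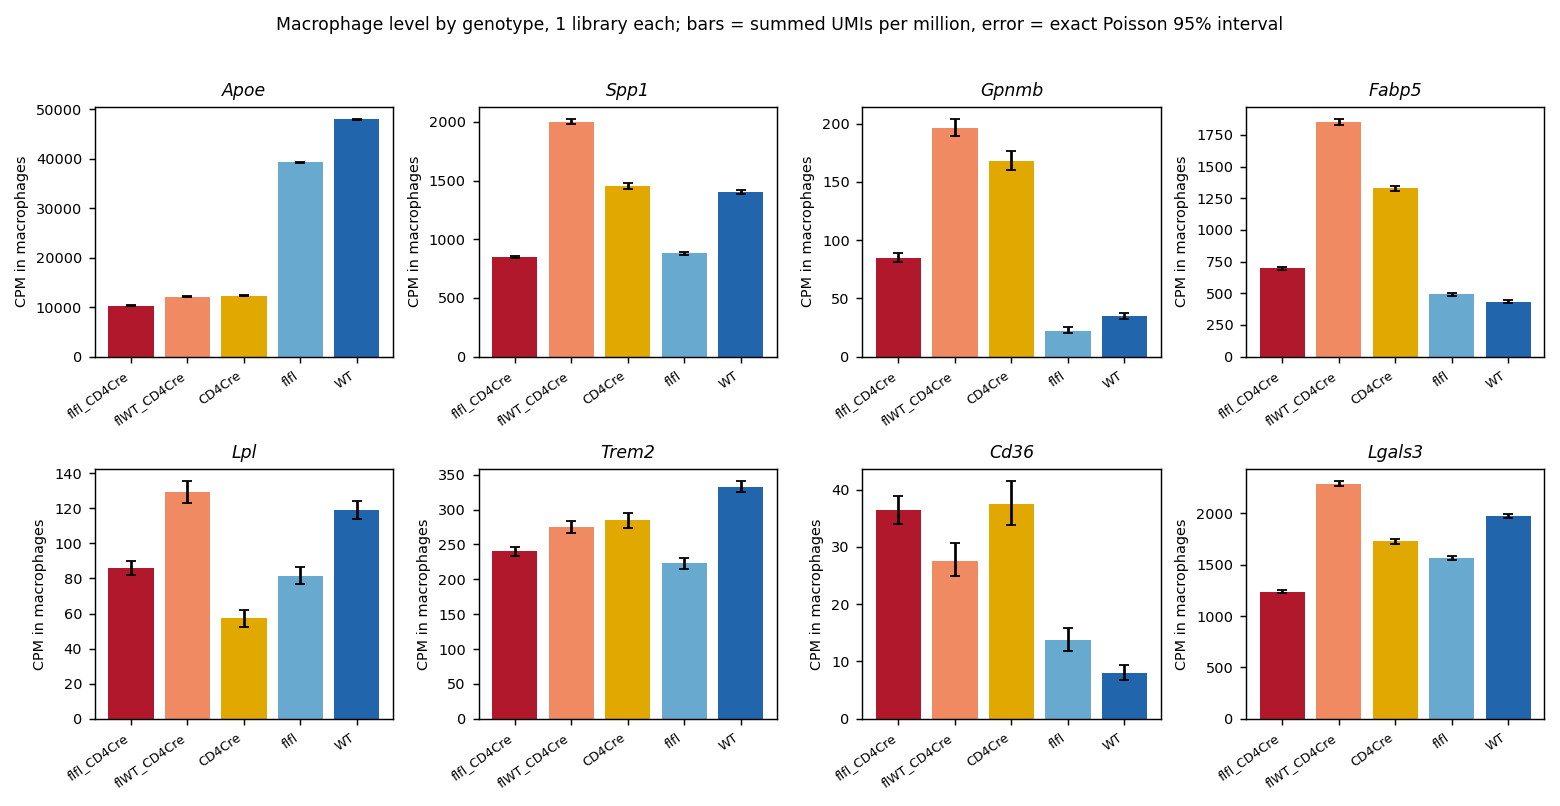
Level of the 8 genes in macrophages (CPM, bars from 0) in the libraries flfl_CD4Cre, flWT_CD4Cre, CD4Cre, flfl and WT, with exact Poisson 95% intervals that cover counting error only. Apoe is at 39266 and 47999 CPM in flfl and WT and between 10302 and 12342 in the 3 Cre libraries, while Gpnmb, Fabp5 and Cd36 are higher in the Cre libraries.

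In the bulk libraries the 8 genes fell into 2 sets. The PD1_Fc and Ctrl_Fc libraries had 3473884 to 5006301 gene counts with 79.9% to 80.4% of reads not aligned, and the PDL1_Fc and Control libraries 14880455 to 18557390 with 8.95% to 11.2% not aligned. Summed over the 8 T cell markers, PD1_Fc and Ctrl_Fc libraries held 1187 to 1359 CPM and PDL1_Fc and Control libraries 6.85 to 9.00 CPM, with Cd3e at 0 to 0.196 CPM in these 6. The 8 macrophage markers summed to 17.4 to 20.2 CPM in PD1_Fc and Ctrl_Fc libraries, with 1 to 5 of the 8 at 0, and to 469 to 508 CPM in PDL1_Fc and Control libraries, with none at 0. The monocyte markers ran likewise (6.44 to 15 CPM in PD1_Fc and Ctrl_Fc, and 494 to 569 in PDL1_Fc and Control). The 6 libraries of PDL1_Fc and Control thus lacked the markers of the labelled T cells. In bulk samples fewer cells of a type and less RNA per cell cannot be told apart.

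Within each set the genes did not pass a test. Apoe had 61, 14 and 20 counts in the PD1_Fc libraries and 14, 6 and 74 in the Ctrl_Fc libraries, or 6.58 ± 5.17 CPM in PD1_Fc and 7.15 ± 7.66 in Ctrl_Fc (SD, n = 3 each). Spp1 had 196, 48 and 45 counts in PD1_Fc and 27, 28 and 142 in Ctrl_Fc (20.1 ± 17.5 CPM and 15.1 ± 13.3). In both groups 1 library stood above the other 2, PD1_Fc 1 and Ctrl_Fc 3. The same 2 libraries were high in Lyz2, a lysozyme of myeloid cells, at 126 CPM in PD1_Fc 1 and 130 in Ctrl_Fc 3, against 28.1 to 37.4 in the other 4 libraries, and the part of Lyz2-positive cells in these levels was not tested. Without these 2 libraries 0 of the 8 genes passed as well. Lgals3 had 285, 207 and 208 counts in PD1_Fc and 128, 140 and 254 in Ctrl_Fc (49.2 ± 8.64 and 42.5 ± 10.4 CPM). Fabp5 (0 to 3 counts), Cd36 (0 to 5), Lpl (1 to 9) and Trem2 (0 to 13) were near the floor of 3 counts a library. Of the 8 genes 0 passed between PD1_Fc and Ctrl_Fc (log2 differences −0.67 to 0.41, SE 0.16 to 1.12, lowest adjusted p = 0.932), where 7 of 14653 genes passed in edgeR (0.0478%, with 0.00682% higher and 0.0409% lower, 771 genes at an unadjusted p under 0.05, and 14 genes by DESeq2).

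Between PDL1_Fc and Control, 0 of 8 genes passed and log2 differences ran from −0.06 to 0.12 (SE 0.09 to 0.47). Errors of this size do not show that levels were equal. In edgeR 0 of 14653 genes passed (0.0%, with 528 at an unadjusted p under 0.05, and 0 by DESeq2). Apoe had 37123, 34083 and 37817 counts in PDL1_Fc and 44097, 42211 and 43297 in Control (2358 ± 66.0 and 2414 ± 159 CPM). Spp1 had 83948, 88154 and 86904 counts in PDL1_Fc and 106595, 109026 and 97719 in Control (5609 ± 274 and 5822 ± 63.6 CPM). Trem2 had 4936, 4631 and 5344 counts in PDL1_Fc and 5332, 5616 and 5890 in Control (322 ± 11.2 and 314 ± 33.7 CPM), so after scaling for depth the groups overlapped. The difference between the 2 comparisons passed for 0 of 8 genes as well (log2 −0.70 to 0.47), where 1 gene passed in all (0.00682%, 802 at an unadjusted p under 0.05, 6 by DESeq2).

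Between the sets all 8 genes differed. In Ctrl_Fc against Control all 8 were lower, where 91.8% of genes passed (47.4% lower and 44.4% higher). Apoe fell by 9.02 on the log2 scale (SE 0.55, adjusted p = 1.89e-07), and Lgals3 by 7.31 (adjusted p = 1.33e-38), the smallest difference of the 8. In PD1_Fc against PDL1_Fc all 8 were lower too (log2 −9.37 to −7.03), where 91.8% of genes passed (46.8% lower and 45% higher). Of 59 tested genes in the 6 lipid lists, 52 were lower and 6 higher in Ctrl_Fc than in Control, among them all 12 lysosomal and all 10 droplet genes. Set and treatment cannot be told apart in these 2 comparisons, and when groups were taken from the treatment field instead, with PDL1_Fc then holding 1 library, none of the 8 passed between PD1_Fc and PDL1_Fc.

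**Figure D5:**
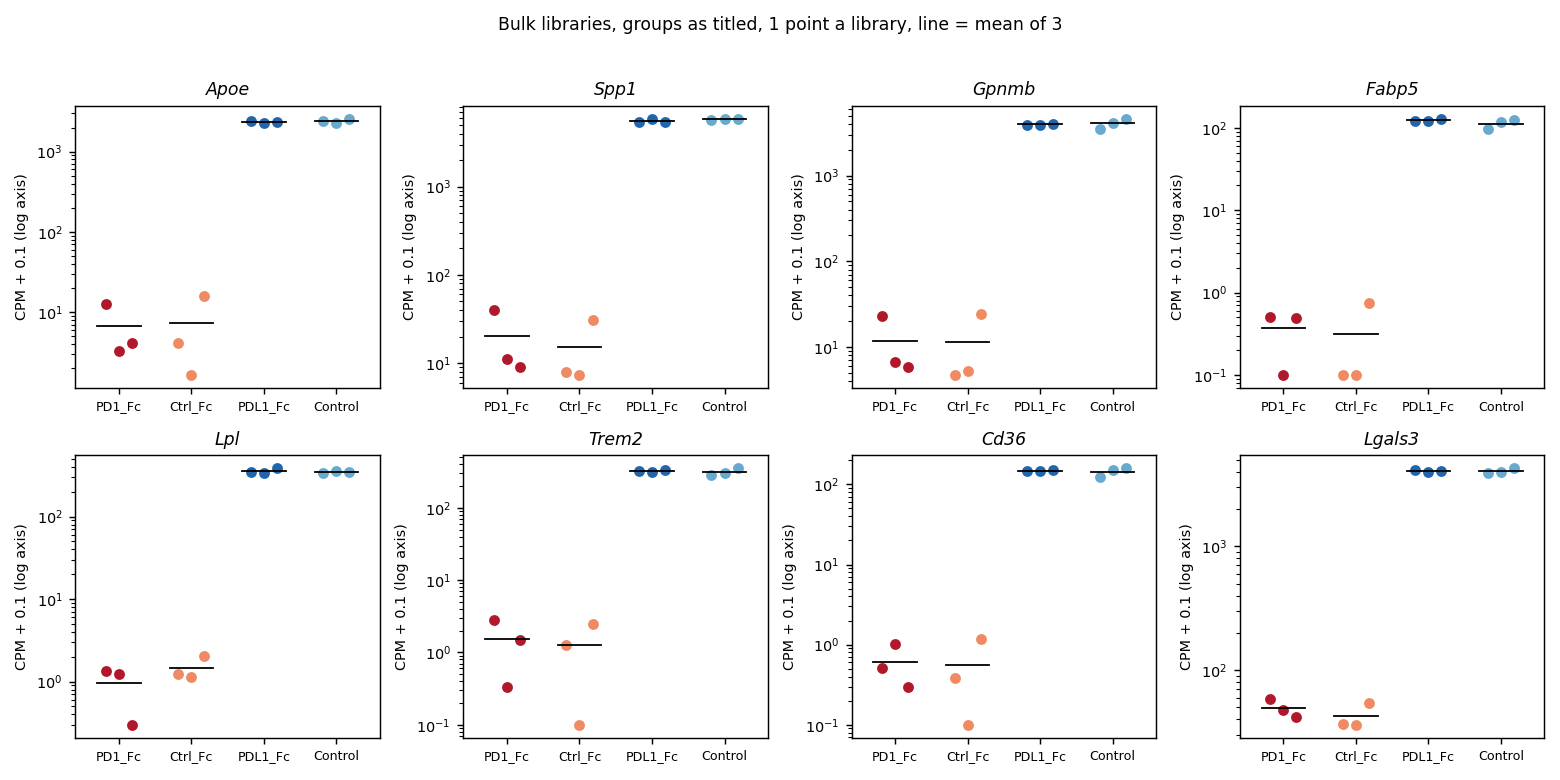
Level of the 8 genes (CPM plus 0.1, log axis) in the 12 bulk libraries, by titled group (PD1_Fc, Ctrl_Fc, PDL1_Fc and Control), with the line at the mean of 3. PD1_Fc overlaps Ctrl_Fc and PDL1_Fc overlaps Control for all 8 genes, and the PD1_Fc and Ctrl_Fc libraries lie below the PDL1_Fc and Control libraries.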

How the data were processed

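The deposited gene counts of the 12 bulk libraries (HTSeq after STAR, build mm10, per the submitters' processing notes) and the deposited UMI counts of the 5 single-cell matrices (Cell Ranger, 3.1.0 per the headers of 3 of them) were used as the authors made them. The file names of 2 single-cell matrices differ from what the labels say, and genotypes follow the labels. Bulk groups follow the titles. No per-sample column was left unused.

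Cells under 200 genes or over 10% mitochondrial UMIs were dropped, likely doublets (66 to 252 a library) were removed by Scrublet score, and a cell took the class with the most of its 8 markers detected, at least 3 (the plasma cell marker Tent5c is absent, leaving 7). Ties, 361 cells, stayed unassigned. Of the macrophages, 384 had only 3 markers and 411 had the monocyte list within 1. Class sums of at least 20 cells and bulk counts were tested with edgeR 4.0.16 (TMM, filterByExpr, robust quasi-likelihood test, Benjamini-Hochberg adjustment over all genes, threshold 0.05) in R 4.3.3, with the library as a block for class sums, and DESeq2 1.42.0 as an alternative. Single-cell steps used scanpy 1.11.5 in Python 3.11.15. Scripts were tested on simulated data.

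The 8 genes and the lists were chosen with earlier results of these data known. The 8 genes are always named, and of each list at most 3 genes that passed with the largest difference, except 1 that is not reported here. Genes with like profiles are the 3 with the highest correlation, at 50 CPM or more in a sum. Each genotype is 1 library, and nothing in the labels says that bulk replicates are separate cultures, so p-values measure the spread between these libraries. UMIs and reads give intervals for counting error only. The bulk replicate numbers do not pair the samples. Handling of shared barcodes and the fits within a gene table were alternatives added after seeing the data.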

Additional observations from a re-analysis of the deposited data

Results flagged for a closer look

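Spp1 differed in opposite directions between flfl_CD4Cre and CD4Cre in 2 cell classes. In macrophages it was at 849 CPM in flfl_CD4Cre and 1456 in CD4Cre (log2 difference −0.78), and in tumour epithelial cells at 5219 CPM in flfl_CD4Cre and 3170 in CD4Cre (0.72). The macrophage difference minus the tumour difference was −1.5 on the log2 scale. With 1 library a genotype this difference was not tested. In macrophages the log2 difference came to −0.79 with only the deepest copy of a shared barcode kept. It came to −0.19 without any cell of a shared barcode. In the tumour epithelial class 64 of 481 cells in flfl_CD4Cre and 14 of 269 in CD4Cre have a barcode that no other library holds, so most cells on that side have shared barcodes. Unshared cells and deepest copies together held 12921621 of 13056060 UMIs of the class in flfl_CD4Cre. In CD4Cre they held 2211091 of 2429084. The Spp1 difference on these cells alone was not tested.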

How the results depend on the processing

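The counts of the 8 genes that passed were the same in most alternatives, and the exceptions follow. With groups taken from the treatment field, 0 of 8 genes passed between PD1_Fc and PDL1_Fc, against 8 by title, and 8 passed in the difference between comparisons, against 0 by title. The log2 differences of PD1_Fc over PDL1_Fc were then positive, at 9.17 for Apoe, 9.25 for Spp1, 9.38 for Gpnmb, 8.17 for Fabp5, 10.65 for Lpl, 7.80 for Trem2, 9.39 for Cd36 and 6.58 for Lgals3 (adjusted p = 0.443 each), since that field exchanges libraries between the 2 sets. By that field PDL1_Fc holds 1 library and PD1_Fc mixes 2 libraries of one set with 3 of the other, so these values rest on an arm of 1 library assumed to vary like the other groups, and nothing is read from them. Without the 4 libraries of conflicting labels the PDL1_Fc comparisons could not be fitted. Genes passing in all moved by over 1.5 times between PD1_Fc and Ctrl_Fc (7, against 14 by DESeq2, 27 with only these 6 libraries, 2 without the conflicting libraries, 0 by the treatment field and 0 to 8 with 1 library left out) and in the difference between comparisons (1, against 6 by DESeq2 and 10130 by the treatment field). With the replicate block the members passing stayed at 0, 0, 8, 8 and 0 in the 5 bulk comparisons. Same-numbered libraries correlated at −0.113 to 0.0526.

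Against monocytes, 2 of the 8 genes passed. The count was 1 with DESeq2 size factors, with no filter on low counts, with at least 4 markers and with the deepest copy of a shared barcode, 4 with the 3 Cre libraries and 4 with flfl and WT. Leaving out 1 library gave 1 to 2. Genes passing in all were 1140, against 1880 by DESeq2, 2418 in the Cre libraries and 518 to 1025 with 1 library left out. Spp1 turned to 0.064 with no filter, 0.042 with thinned calls, 0.0095 without shared barcodes and 0.69 in flfl and WT, and ran from −0.41 to 0.31 with 1 library left out. Gpnmb turned to −0.38 in the Cre libraries and ran from −0.058 to 0.74 with 1 library left out, while in flfl and WT alone it passed as higher (2.48, adjusted p = 0.00505). With classes from Leiden clusters the differences were −1.03 for Gpnmb, −0.12 for Fabp5 and −0.21 for Cd36, and Spp1 (−1.71, adjusted p = 0.00199) and Lgals3 (−0.88, adjusted p = 0.0315) passed as lower. Against dendritic cells 5 to 6 passed and against tumour epithelial cells 7 to 8 with 1 library left out. Against dendritic cells, in flfl and WT alone, Fabp5 was at 0.093 and Lgals3 at −0.11. Cd36 was at 1.03 in the Cre libraries and ran from −1.19 to 0.059 with 1 library left out. The cause was not tested for these. Depth limits Fabp5, Cd36, Lpl and Trem2 in PD1_Fc and Ctrl_Fc, where counts were 0 to 13.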
